A study of Macaca fascicularis with 16 samples.

Results

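The genes described here encode the proteins that cytotoxic lymphocytes store in their granules. They are the 5 granzymes GZMA, GZMB, GZMH, GZMK and GZMM, the pore-forming protein perforin (PRF1), and the granule-associated genes GNLY, NKG7, CST7 and CTSW. The 10 genes were picked by symbol among the 23602 gene symbols of the count tables, and the rule sets no threshold on a measured value. They were, however, proposed with earlier results of these data known. The shares of all genes set beside their counts below are therefore no independent comparison. Each had 1 entry there, and all 10 passed the filter on low counts that left 11545 genes for testing.

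Cytotoxic granules are secretory lysosomes of natural killer (NK) cells and of killer T cells. When such a cell binds a target, the granules fuse with its surface, perforin opens the target's membranes, and granzymes, which are serine proteases, enter and cut proteins that start cell death. In blood, transcripts of this group come mainly from NK cells and from CD8 and gamma-delta T cells, and T cells with an invariant receptor can carry them as well.

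The samples were unfractionated mononuclear cells of the blood (PBMC) from 4 Mauritian-origin cynomolgus macaques, LG04, LG11, LG12 and LG15. Every animal received NKTT320, a monoclonal antibody that binds the semi-invariant receptor of iNKT cells (invariant natural killer T cells), a scarce T-cell lineage that sees lipids bound to CD1d. Blood was drawn before treatment and at 30 minutes, 2 hours and 1 day after it, which gave 16 libraries, 4 per time, with each animal present at every time. The study addressed what activation of iNKT cells by the antibody does in the living animal. Untreated animals were not analysed here, so an effect of the antibody cannot be told apart from those of elapsed time and of serial blood draws. The labels used here give neither the dose nor the route nor the animals' ages.

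The libraries held 1417467 to 8582852 counts. Globin genes took 0.0253% to 48.7% of them, so levels are given as CPM, that is, counts scaled to a common library size after TMM normalization. On that scale 3 counts, taken as the limit of detection, stood for 0.35 to 1.97 CPM. Summed markers of T cells (826 to 1486 CPM), NK cells (148 to 644 CPM), B cells (95.4 to 782 CPM) and monocytes (158 to 7659 CPM) were found in every library, whereas NCR3 (an NK-cell receptor) and IL3RA (a marker of plasmacytoid dendritic cells) were listed at 0 in all 16 and CLEC4C, another marker of those cells, had 23 counts in all. The 1 day library of LG04 stood apart from its own animal. Its chi-square per gene was 11.3 against the 1 day library of LG15 and 88.1 against the pre-treatment library of LG04, so fitted changes at 1 day are also given without it. Whether this library was exchanged with another was not tested.

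Per kilobase of gene, GZMB and GZMH were the most abundant of the group and GZMM and GZMA the least. The deposited FPKM (fragments per kilobase of gene, scaled to library size) had medians over the 16 libraries of 261 for GZMB, a protease that cuts after aspartate and activates caspases, and 238 for GZMH, a protease with chymotrypsin-like specificity in humans. GZMB ranked first in 13 libraries and GZMH in the other 3, so their order was not stable. Both are neighbouring genes in the macaque RefSeq annotation (T2T-MFA8v1.1) and resemble each other closely, and reads could have been split between them on the human gene models used for counting. GNLY (granulysin, a protein that damages microbial and cell membranes) had a median of 102 FPKM and NKG7 (a granule membrane protein needed for degranulation) one of 87.7, and these genes shared ranks 3 and 4 in every library. PRF1 followed with 55.1 FPKM and CST7 with 51.7. CST7 encodes cystatin F, which inhibits the cathepsin that matures granzymes. CTSW (cathepsin W, a papain-like protease of NK and CD8 T cells) had a median of 24.4 FPKM, GZMK (a trypsin-like granzyme found in memory T cells and one subset of NK cells) 20.1, GZMA (the other trypsin-like granzyme, which neighbours GZMK in that annotation) 10.4 and GZMM (a granzyme that cuts after methionine or leucine) 4.03. GZMM ranked last in 15 of 16 libraries, with 1 to 71 counts, and GZMA had 3 to 112 counts, so both were measured with few reads.

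The genes differed in how much of their variation lay between animals and how much between times. For GNLY, times held 62.2% of the sum of squares of log2 CPM and animals 14.3%, against medians over all genes of 12.1% between times and 46.4% between animals. Times also held more than animals for GZMH (48.5% and 25.9%), GZMB (44.2% and 35.7%) and CST7 (42.9% and 36.5%). CTSW stood at the other end, with 87.2% between animals and 5.41% between times. Its CPM lay between 9.33 and 20.0 in the libraries of LG11 and between 40.7 and 64.4 in those of LG04, which did not overlap. GZMM (73.6%), GZMK (68.6%) and NKG7 (65.4%) also varied mostly between animals, and these shares are descriptions without a test.

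**Figure D1:**
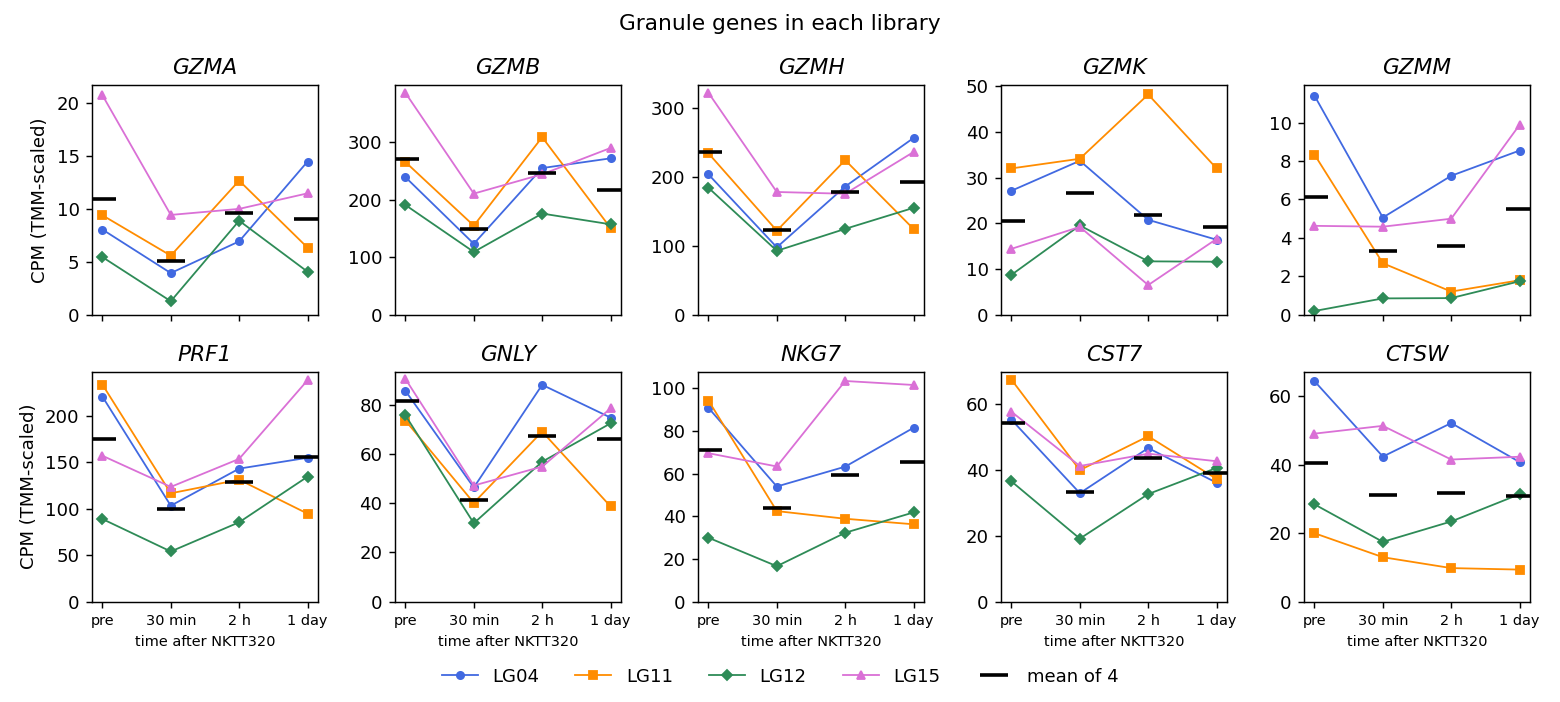
CPM of the 10 granule genes in each library, on linear axes starting at 0, by time (pre-treatment, 30 minutes, 2 hours and 1 day). Coloured lines join the libraries of an animal and black bars are means of 4. At 30 minutes 7 genes lie below pre-treatment in all 4 animals, and GZMK lies above it in all 4.

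At 30 minutes against pre-treatment, 9 of the 10 genes had lower values and GZMK a higher one. Among the 9, GZMA was 2.10-fold lower and CTSW 1.36-fold lower, the ends of the range. The median log2 fold change of the 10 was -0.84, and that of all 11545 genes was 0.02. GZMA, GZMB, GZMH, PRF1, GNLY, NKG7 and CST7 were lower in 4 of 4 animals, which held for 4.42% of all genes, and GZMK was higher in 4 of 4, which held for 6.21%. These 7 genes had an unadjusted p under 0.05 in edgeR's quasi-likelihood test, against 1.48% of all genes in that direction, and none of the 10 on the higher side (1.05% of all genes). After Benjamini-Hochberg adjustment over all genes none of the 10 passed 0.05, and neither did any other gene (0 of 11545, 0%). With DESeq2, 11 genes passed (0.0953%), and GNLY (adjusted p = 0.00759) and CST7 (adjusted p = 0.0294) were 2 of them. Counts cannot tell fewer cells of a type in the blood from less RNA per cell.

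GNLY had the smallest p of the group in this comparison. It had 46.4, 40.2, 31.9 and 47.2 CPM at 30 minutes in LG04, LG11, LG12 and LG15, against 85.8, 73.7, 75.8 and 90.6 CPM before treatment. The highest 30 minute value lay well below the lowest pre-treatment value, and the means were 41.4 ± 7.11 CPM at 30 minutes and 81.5 ± 8.07 CPM before treatment (SD, n = 4 each). The log2 fold change was -0.98 ± 0.20 (SE) with an adjusted p of 0.538 in edgeR (unadjusted 0.000255).

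GZMH was the other gene without overlap between the times, a pattern seen in 0.459% of all genes on the lower side. It had 97.8, 122, 92.7 and 178 CPM at 30 minutes, against 203, 234, 184 and 322 CPM before treatment, in the same order of animals. The log2 fold change was -0.95 ± 0.22 (adjusted p = 0.581, edgeR). In deposited FPKM the times of GZMH overlapped, with 280 in LG15 at 30 minutes and 240 in LG04 before treatment. GZMB had 123, 155, 109 and 211 CPM at 30 minutes, against 239, 266, 191 and 386 CPM before treatment. LG15 was the highest animal at both times, and its 30 minute value lay above the pre-treatment value of LG12, so the times overlapped although every animal was lower. The log2 fold change of GZMB was -0.85 ± 0.20 (adjusted p = 0.581, edgeR), and the changes in single animals ranged narrowly, between -0.95 in LG04 and -0.78 in LG11.

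PRF1, whose product opens the way for granzymes, had 103, 117, 54.0 and 124 CPM at 30 minutes, against 221, 234, 89.0 and 157 CPM before treatment. LG12 was lowest at both times, and the difference was smallest in LG15. The log2 fold change was -0.82 ± 0.25 (adjusted p = 1, edgeR). CST7, the cystatin, had 33.0, 40.0, 19.1 and 41.2 CPM at 30 minutes, against 55.3, 67.5, 36.5 and 57.7 CPM before treatment. The log2 fold change was -0.71 ± 0.17 (adjusted p = 0.817, edgeR). All 4 animals were lower, and again the difference was smallest in LG15.

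GZMA had 3.93, 5.58, 1.28 and 9.42 CPM at 30 minutes, against 8.04, 9.39, 5.44 and 20.7 CPM before treatment. Its log2 fold change of -1.07 ± 0.37 (adjusted p = 1, edgeR) rested on 3 counts in LG12 and 72 in LG15 at 30 minutes. NKG7 had 53.9, 42.4, 16.6 and 63.3 CPM at 30 minutes, against 90.8, 94.2, 29.9 and 69.6 CPM before treatment. The differences ranged from -1.14 on the log2 scale in LG11 to -0.13 in LG15, with a fitted log2 fold change of -0.76 ± 0.28 (adjusted p = 1, edgeR).

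On the CPM scale CTSW and GZMM had no direction common to all animals at 30 minutes. CTSW had 42.3, 12.9, 17.4 and 51.3 CPM at 30 minutes, against 64.4, 20.0, 28.4 and 49.0 CPM before treatment, so that LG15 was higher and the other animals lower (log2 fold change -0.45 ± 0.21, adjusted p = 1, edgeR). In deposited FPKM CTSW was lower in every animal, though hardly in LG15 (44.2 at 30 minutes, 44.6 before treatment). GZMM had 5.06, 2.68, 0.85 and 4.58 CPM at 30 minutes, against 11.4, 8.33, 0.19 and 4.62 CPM before treatment. In LG12 these were 2 counts and 1 count, below the limit of 3, and in LG15 the values hardly differed. The fitted log2 fold change of GZMM was -0.89 ± 0.54 (adjusted p = 1, edgeR), and it was -0.45 without LG11 and -0.29 and -0.42 on the FPKM scales (pseudocounts 0.1 and 1).

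GZMK was the exception. It had 33.7, 34.2, 19.6 and 19.2 CPM at 30 minutes, against 27.1, 32.0, 8.75 and 14.4 CPM before treatment. Every animal was higher on this CPM scale, by 0.09 on the log2 scale in LG11 and by 1.12 in LG12, and the times overlapped. In deposited FPKM, LG04 (23.7 at 30 minutes, 26.9 before treatment) and LG11 (39.0 and 40.3) were lower. LG12 (26.7 and 12.1) and LG15 (23.2 and 17.1) were higher in FPKM as well. The log2 fold change was 0.48 ± 0.28 (unadjusted p = 0.113, adjusted p = 1, edgeR), and it was 0.26 without LG12.

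**Figure D2:**
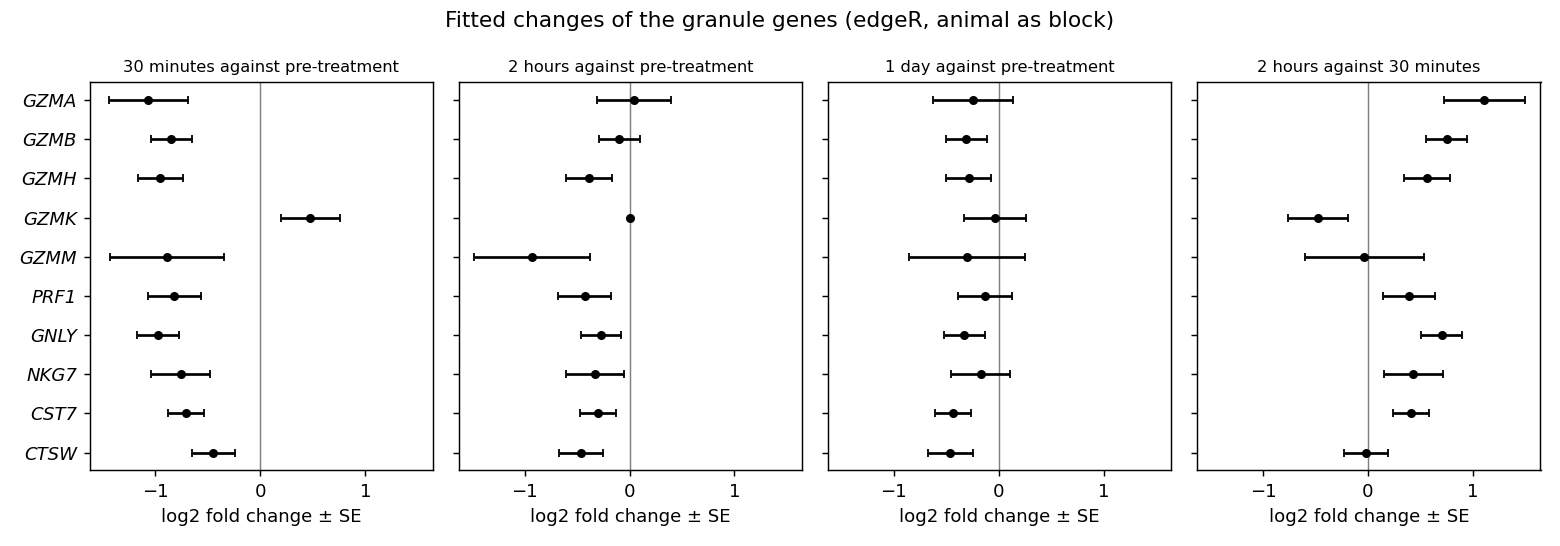
Log2 fold changes of the 10 granule genes from the edgeR fit with the animal as a block, with SE as bars, for 30 minutes, 2 hours and 1 day against pre-treatment and 2 hours against 30 minutes (4 libraries per time). At 30 minutes 9 points lie below 0 and GZMK at 0.48, and no bar is drawn for GZMK at 2 hours, where the fitted change was 0.00.

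At 2 hours against pre-treatment the group lay nearer to its starting level. Its median log2 fold change was -0.31, against 0.02 for all genes, and 8 of 10 genes were lower. GZMB, with 255, 309, 176 and 244 CPM at 2 hours, against 239, 266, 191 and 386 CPM before treatment, was higher in LG04 and LG11 and lower in LG12 and LG15 (log2 fold change -0.10 ± 0.19, adjusted p = 0.941, edgeR). GNLY averaged 67.3 ± 15.3 CPM at 2 hours and 81.5 ± 8.07 CPM before treatment (SD, n = 4 each) and was lower in 3 of 4 animals, LG04 being the exception. GZMH, PRF1, CST7 and CTSW were lower in 4 of 4 animals, as were 6.52% of all genes. Of these only CTSW had an unadjusted p under 0.05 (3.27% of all genes were lower at that level, 4.17% higher). It had 52.1, 9.77, 23.4 and 41.5 CPM at 2 hours, against 64.4, 20.0, 28.4 and 49.0 CPM before treatment (log2 fold change -0.47 ± 0.21, unadjusted p = 0.0438, adjusted p = 0.656, edgeR). In deposited FPKM CTSW was higher in LG12, with 25.0 at 2 hours and 23.8 before treatment. None of the 10 passed an adjusted 0.05 and neither did any other gene (0%) in edgeR, and with DESeq2 79 genes (0.684%) and none of the 10 did. The fitted directions of GZMA (0.04 ± 0.36) and GZMK (0.00) at 2 hours turned with several other settings, and scaling to raw library totals put all 10 genes lower.

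Set directly against 30 minutes, 7 of the 10 genes were higher at 2 hours, with a median log2 fold change of 0.42 against 0.01 for all genes. The 30 minute libraries are the same as in the comparison with pre-treatment, so these comparisons are not independent. GZMA, GZMB, GZMH, GNLY and CST7 had an unadjusted p under 0.05 on the higher side, against 2.31% of all genes. On the CPM scale GZMA, GZMB, PRF1, GNLY and CST7 were higher in 4 of 4 animals, against 8.54% of all genes. In deposited FPKM, GZMA (13.8 at 2 hours, 15.7 at 30 minutes) and CST7 (54.0 and 57.7) were lower in LG15. The count of 5 at an unadjusted 0.05 was 3 without LG04 and 2 without LG12. After adjustment over all genes none of the 10 passed and no other gene did (0%) in edgeR, and DESeq2 called 3 genes (0.026%), none of them among the 10.

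GNLY had 88.3, 69.2, 56.9 and 55.0 CPM at 2 hours, against 46.4, 40.2, 31.9 and 47.2 CPM at 30 minutes. It was the only one of the 10 whose CPM did not overlap between these times, a pattern of 0.372% of all genes on the higher side (log2 fold change 0.71 ± 0.20, adjusted p = 0.841, edgeR). In deposited FPKM the times of GNLY overlapped, with 77.3 in LG04 at 2 hours and 94.4 in LG15 at 30 minutes. GZMB had a log2 fold change of 0.75 ± 0.20 and an adjusted p of 0.841, and the difference was 1.05 in LG04 and 0.21 in LG15, the ends of the range. GZMK was lower at 2 hours than at 30 minutes in 3 of 4 animals, with 20.8, 48.2, 11.7 and 6.50 CPM at 2 hours, against 33.7, 34.2, 19.6 and 19.2 CPM at 30 minutes, LG11 being the exception. CTSW (log2 fold change -0.02 ± 0.21) and GZMM (-0.03 ± 0.57) had no common direction.

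At 1 day against pre-treatment all 10 genes had a fitted change below 0, but the differences were small (median -0.29, all genes -0.00), the animals differed, and GZMM lay above 0 on the FPKM scales. The sum of the 10 genes was 956 CPM in LG04, 532 in LG11, 651 in LG12 and 1068 in LG15 at 1 day, against 1007, 1039, 649 and 1172 CPM before treatment. LG11 thus stood well below its pre-treatment level while LG12 was level with it. PRF1 shows the split: it had 155, 94.8, 135 and 239 CPM at 1 day, against 221, 234, 89.0 and 157 CPM before treatment, lower in LG04 and LG11 and higher in LG12 and LG15 (log2 fold change -0.13 ± 0.25, adjusted p = 0.917, edgeR). Without LG11 the fitted change was 0.26 for PRF1, 0.31 for NKG7 and 0.65 for GZMM.

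GNLY was the only one of the 10 that was lower at 1 day in 4 of 4 animals (9.16% of all genes were), with 74.9, 38.7, 72.6 and 78.6 CPM at 1 day, against 85.8, 73.7, 75.8 and 90.6 CPM before treatment. Its log2 fold change was -0.33 ± 0.20 (adjusted p = 0.538, edgeR). CST7 (-0.44 ± 0.17, adjusted p = 0.271) and CTSW (-0.46 ± 0.21, adjusted p = 0.366) had unadjusted p-values of 0.0268 and 0.0496, and 5.13% of all genes were lower at that level. None of the 10 passed an adjusted 0.05, whereas 26 genes (0.225%) did in edgeR and 400 (3.46%), again none of the 10, with DESeq2. That edgeR count was 1 without LG04, 2 without LG11, 1 without LG12 and 67 without LG15. Without the 1 day library of LG04 the fitted changes were -0.68 for GZMA, -0.48 for GZMB, -0.50 for GZMH, -0.26 for GZMM, -0.06 for PRF1, -0.33 for GNLY, -0.20 for NKG7, -0.39 for CST7 and -0.40 for CTSW, and 0.11 for GZMK, which was -0.04 with it. The adjusted p-values of CST7 and CTSW were then 0.454 and 0.549 (edgeR).

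At 1 day against 2 hours no gene of the group had an unadjusted p under 0.05 in edgeR (5.48% of all genes were lower and 7.12% higher at that level), and none passed after adjustment, when 12 genes (0.104%) did. That count of 12 was 2 without LG04, 1 without LG11, and 0 without LG12 or without LG15. DESeq2 called 114 genes (0.987%), none of the 10. Only GZMM was higher at 1 day than at 2 hours in 4 of 4 animals (11.3% of all genes were), with 13, 15, 3 and 25 counts at 1 day and 24, 10, 4 and 10 counts at 2 hours in libraries of unequal depth.

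In a test of all 4 times together GNLY again had the smallest p of the 10 (adjusted p = 0.148, edgeR), followed by GZMB (0.176), GZMH (0.199) and CST7 (0.222). GZMA, GZMB, GZMH, PRF1, GNLY and CST7 had an unadjusted p under 0.05, as did 12.2% of all genes, and none of the 10 passed after adjustment, when 12 genes (0.104%) did. The likelihood ratio test of DESeq2 called 440 genes (3.81%), with GNLY (adjusted p = 0.00525), CST7 (0.0139), GZMB (0.0242) and GZMH (0.033) among them.

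Within an animal, the 30 minute library was the lowest point of most courses. Of the 40 courses of a gene in an animal, 25 (62.5%) had their lowest value at 30 minutes, while 21.5% of all gene courses did. It was 8 of 10 genes in LG04, 8 in LG12 and 7 in LG15, but 2 in LG11, where 6 were lowest at 1 day. Pre-treatment was the highest point in 20 of the 40, but the share of all gene courses with their highest point there was not computed. The courses rest on the same libraries as the comparisons above and are no separate evidence.

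The granzymes did not keep a fixed ratio to each other. The log2 ratio of GZMB to GZMK was 1.86, 2.17, 2.46 and 3.43 at 30 minutes, against 3.12, 3.03, 4.38 and 4.70 before treatment. Every animal was lower, and the times overlapped. The ratio of GZMB to GZMH was nearly the same in all 4 animals at 2 hours, with log2 values of 0.46, 0.46, 0.50 and 0.48. These lay above every other library, which held 0.05 to 0.26 before treatment, 0.24 to 0.34 at 30 minutes and 0.02 to 0.30 at 1 day. Both ratios were singled out after their values were seen and have no test, and the likeness of the GZMB and GZMH genes bears on the second.

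**Figure D3:**
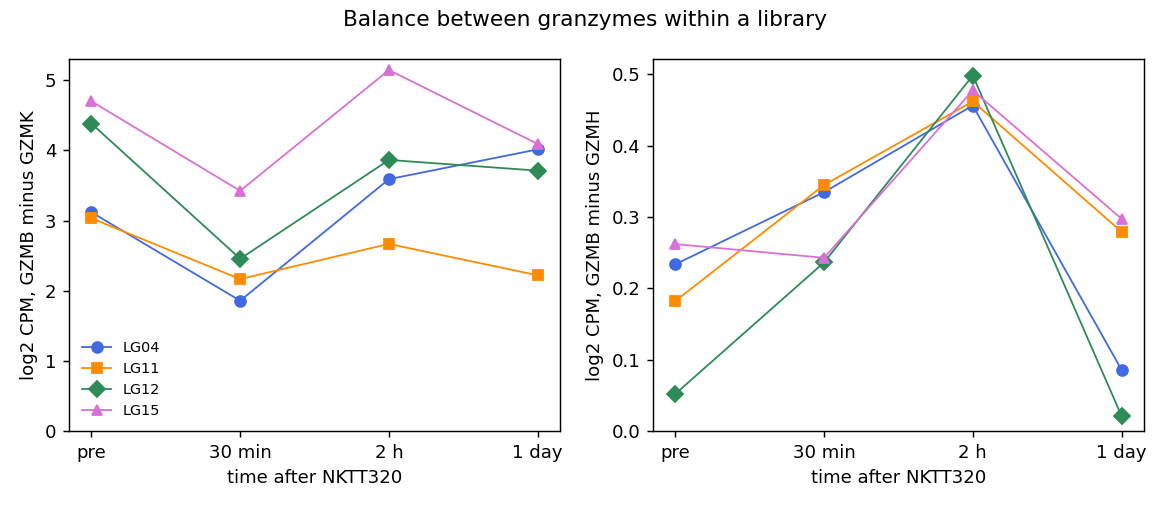
Log2 ratio of GZMB to GZMK (left) and of GZMB to GZMH (right) within each library, by time and animal; lines join an animal's libraries. The left ratio is lower at 30 minutes than before treatment in all 4 animals, and the right ratio is 0.46 to 0.50 at 2 hours, above all other times.

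Other genes of the killing pathway were counted by role. Of 5 tested genes for granzyme maturation and storage, 3 had lower and 2 higher values at 30 minutes than before treatment (median log2 fold change -0.02). Their p-values ran from 0.524 for CTSC, the cathepsin that activates granzymes (79.7 ± 30.3 CPM at 30 minutes and 72.0 ± 28.3 CPM before treatment, log2 fold change 0.15 ± 0.23), to 0.915 for CALR, a chaperone that also occurs in granules (-0.02 ± 0.22). Of 11 tested genes of granule exocytosis 7 were lower (median -0.01). SYTL2, a synaptotagmin-like protein that docks granules, had the smallest p. It averaged 149 ± 27.4 CPM at 30 minutes and 247 ± 63.6 CPM before treatment (SD, n = 4 each) and was lower in 4 of 4 animals (log2 fold change -0.70 ± 0.24, unadjusted p = 0.0115, adjusted p = 1, edgeR). STXBP2, the syntaxin-binding protein of granule fusion, had the largest (-0.01 ± 0.30, unadjusted p = 0.967).

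Of 3 granzyme inhibitors 2 were lower (median -0.39). SERPINB9, which blocks granzyme B in the killer cell itself, averaged 99.8 ± 11.0 CPM at 30 minutes and 130 ± 8.99 CPM before treatment (log2 fold change -0.39 ± 0.13, unadjusted p = 0.00916, adjusted p = 1, edgeR), and SERPINB1, an inhibitor of neutrophil proteases, had the largest p (0.20 ± 0.25, unadjusted p = 0.434). Of 7 death ligands and secreted effectors 6 were lower (median -0.79), from CCL4, a chemokine of activated killer cells, with 4.68 ± 2.09 CPM at 30 minutes and 9.24 ± 2.68 CPM before treatment (log2 fold change -0.98 ± 0.25, unadjusted p = 0.00184, adjusted p = 1, edgeR), to CCL3, its close relative, with the largest p (-0.46 ± 0.54, unadjusted p = 0.412). Of 7 transcription factors of cytotoxic lymphocytes 6 were lower (median -0.51). TBX21 (T-bet, which drives the genes of cytotoxic differentiation) averaged 27.2 ± 2.90 CPM at 30 minutes and 50.2 ± 13.1 CPM before treatment and was lower in 4 of 4 animals (log2 fold change -0.88 ± 0.18, adjusted p = 0.538, edgeR). ZEB2, a factor of late NK and T cell differentiation that monocytes also express, had the largest p (-0.09 ± 0.17, unadjusted p = 0.617). No gene of these 5 lists passed an adjusted 0.05 in any of the 5 comparisons.

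Most markers of NK cells were lower together with the granule genes at 30 minutes. All 10 tested NK markers had fitted values below pre-treatment (median log2 fold change -0.55), 7 of them in 4 of 4 animals (4.42% of all genes were). NCAM1 (-0.01 ± 0.45) and FCGR3A (-0.02 ± 0.31) hardly changed, each lower in 2 animals and higher in 2. The summed level of the NK markers was 148 to 459 CPM at 30 minutes and 257 to 575 CPM before treatment. FCGR3A made up much of it, with means of 151 CPM at 30 minutes and 157 CPM before treatment. Of 11 T-cell markers 6 were lower (median -0.06), with sums of 948 to 1486 CPM at 30 minutes and 1111 to 1334 CPM before treatment. CD8A, a coreceptor of killer T cells that NK cells can also carry, was the 1 T-cell marker lower in 4 of 4 animals. It averaged 80.8 ± 19.7 CPM at 30 minutes and 121 ± 31.4 CPM before treatment (log2 fold change -0.56 ± 0.18, adjusted p = 1, edgeR). CD8B was higher in 3 of 4 animals, with 16.9 ± 2.65 CPM at 30 minutes and 16.3 ± 1.66 CPM before treatment (log2 fold change 0.06 ± 0.22). All 8 monocyte markers had higher fitted values (median 0.63, sums of 158 to 5237 CPM at 30 minutes and 415 to 3499 CPM before treatment), as had all 7 B-cell markers (median 0.38) and all 6 red-cell markers (median 0.84). The animals differed: 2 monocyte, 2 B-cell and 1 red-cell marker were higher in 4 of 4 (6.21% of all genes were). None of these markers had an unadjusted p under 0.05 in edgeR. In LG12 the monocyte sum was lower, with 158 CPM at 30 minutes and 415 CPM before treatment. Of 4 tested markers of iNKT and related MAIT cells 3 were lower (median -0.19), among them KLRB1, which is also in the NK list. Neutrophil markers had a median of 0.70 (5 of 6 higher), platelet markers of 0.30 (4 of 7 higher) and markers of plasmacytoid dendritic cells of 0.07 (3 of 4 higher). The part of these cell types in the lower granule genes was not tested.

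At 2 hours the NK markers were no longer below pre-treatment as a group. Of the 10 NK markers 7 were above pre-treatment (median 0.07, sums of 280 to 644 CPM at 2 hours and 257 to 575 CPM before treatment), and all 11 T-cell markers were below it (median -0.46, sums of 826 to 955 CPM at 2 hours and 1111 to 1334 CPM before treatment). The mean log2 CPM of the 10 granule genes exceeded that of the NK markers by 0.53, 0.24, 0.47 and 0.79 at 2 hours, against 1.15, 1.08, 0.51 and 1.02 before treatment. The margin was thus smaller in 4 of 4 animals, though only slightly in LG12. NCAM1, the 1 NK marker higher in 4 of 4 animals, had 30.6 ± 8.83 CPM at 2 hours and 12.1 ± 0.948 CPM before treatment (log2 fold change 1.33 ± 0.44). It raises the NK mean at 2 hours, and the margin was not computed without it. At 30 minutes that margin was smaller than before treatment in LG04 and LG11 and larger in LG12 and LG15. At 1 day 9 of 10 NK markers had lower fitted values than before treatment (median -0.20) and all 7 platelet markers had higher ones (median 2.92). All 8 monocyte markers had higher fitted values at 2 hours than before treatment (median 1.52, sums of 1066 to 7197 CPM at 2 hours and 415 to 3499 CPM before treatment), and 7 of 8 at 1 day (median 1.13). All 7 B-cell markers had lower ones at 2 hours (median -0.43), but only 1 of them was lower in 4 of 4 animals (6.52% of all genes were). The part of these cell types in the 2 hour and 1 day values was not tested. None of these cell-type markers passed an adjusted 0.05 in any of the 5 comparisons in edgeR.

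**Figure D4:**
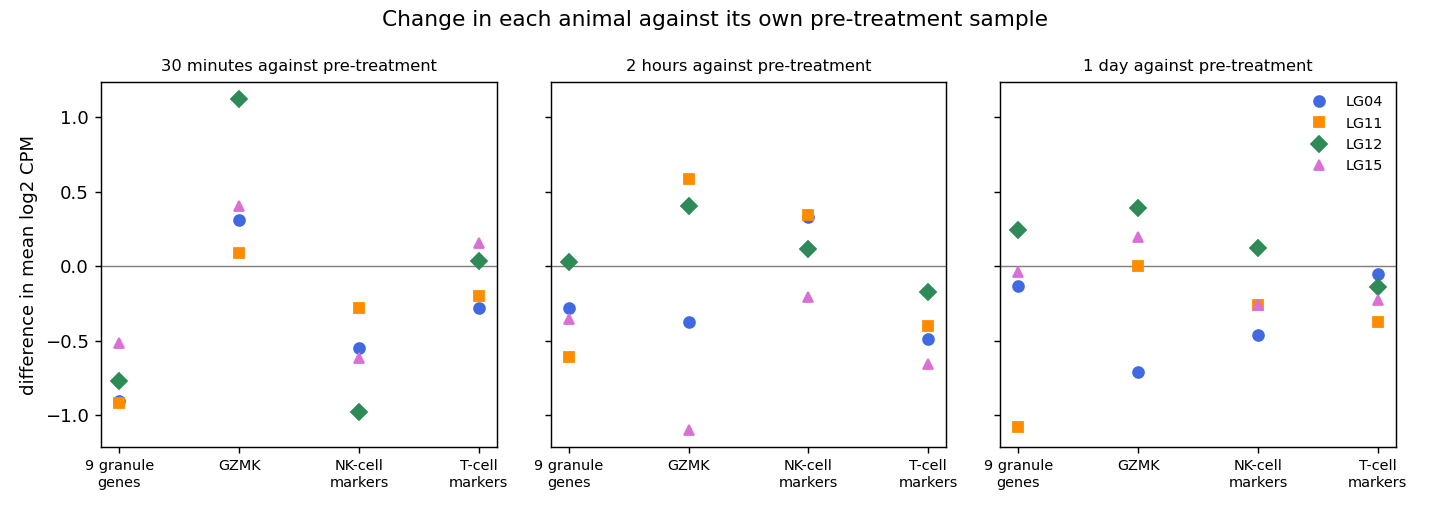
Change of mean log2 CPM in each animal against its own pre-treatment sample at 30 minutes, 2 hours and 1 day, for the 9 granule genes other than GZMK, for GZMK, for 10 NK-cell markers and for 11 T-cell markers. At 30 minutes the 9 genes and the NK markers lie below 0 in all 4 animals and GZMK above it. At 2 hours the T-cell markers lie below 0 in all 4 and the NK markers above 0 in LG04, LG11 and LG12.

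Most genes of the group, but not GZMK, varied together over the 16 libraries once each animal's mean was removed. Of their 45 pairs, the correlations of log2 CPM ranged from -0.51 (GZMK with NKG7) to 0.95 (GZMB with GZMH), with a median of 0.57. PRF1 was most like the mean of the other genes (Pearson r = 0.90), followed by GNLY (0.88), CST7 (0.85), GZMH (0.80), GZMB (0.77), NKG7 (0.75), CTSW (0.66), GZMA (0.57) and GZMM (0.42). GZMK had an r of -0.34, and all 9 of its pairs were below 0. GZMM was most like PRF1 (0.72) and NKG7 (0.71) and had an r of 0.14 with GZMB. Outside the group, the genes most like its mean were PDGFRB (0.90), EED (0.85), GPR153 (0.85), RUNX3 (0.84), PCDH1 (0.84), HOPX (0.84), MAP4 (0.83), POM121C (0.83), CLSTN3 (0.82) and SH2D2A (0.82). The 4 libraries of an animal share its mean and all share their scaling, so these values are descriptions without a test. No correlations between pairs of other genes are given for comparison.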

How the data were processed

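Total RNA of PBMC was sequenced after removal of ribosomal RNA, as stranded libraries with single reads of 75 cycles, per the labels' protocols. The authors deposited whole-number counts per gene, not normalized, and FPKM, which are divided by gene length and by library size. Per the submitters' processing notes, the human builds were GRCh37 and hg19 and the tools edgeR, DESeq, HTSeq, STAR, Trimmomatic and FastQC. Their versions, the strand setting and the program behind the FPKM are not stated. Macaque reads were thus counted on human gene models, and genes that have near-identical copies or overlap others are uncertain.

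Counts of the tables made per animal and time were used, with 24369 entries joined to 23602 symbols. For 23 of 24 columns, the series-wide count tables held the same values, and the 2 hour column of LG04 held that animal's 1 day values. The smallest chi-square per gene over 120 library pairs was 5.15, so no library was counted double. Genes were tested with edgeR 4.0.16 in R 4.3.3 (TMM, filterByExpr, quasi-likelihood F test, terms for animal and for time, 9 residual degrees of freedom), and p-values were adjusted by Benjamini-Hochberg over 11545 genes with a threshold of 0.05. SE were the absolute log2 fold change divided by the square root of the quasi-likelihood F statistic, and were left out where F was very small. Log2 CPM used a prior count of 2. Alternatives were DESeq2 1.42.0, other scalings, no filter, no animal term, libraries left out and deposited FPKM with limma 3.58.1 on the log2(FPKM + 0.1) and log2(FPKM + 1) scales.

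The animal term rests on the design: each animal gave a sample at every time, and deviations from the time means correlated within animals with a median of 0.56 (23 of 24 pairs over 0.1, lowest 0.06). All 10 granule genes are described, and of each list the genes with the smallest and the largest p at 30 minutes. The 10 genes and the lists were proposed with earlier results of these data known, although the rule itself uses only symbols. The limit of 3 counts covers counting error only, since reads that carry no molecular identifier may repeat 1 molecule.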

Additional observations from a re-analysis of the deposited data

Results flagged for a closer look

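GNLY at 1 day was 38.74 CPM in LG11, far from the 3 other animals, of which the nearest had 72.55 CPM. The gap made up 0.848 of the range of the 4 values, above the critical value of 0.829. It was the only one of 40 groups tested (10 genes at 4 times) to exceed it, and chance alone exceeds it in about 1 of 20 groups.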

How the results depend on the processing

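Under 14 alternatives the 30 minute fold changes of the 10 genes against pre-treatment kept their direction. GNLY ranged from -1.14 to -0.93 and GZMB from -1.01 to -0.85, while GZMM ranged from -1.18 to -0.29 and GZMK from 0.26 to 0.55. At an unadjusted 0.05 the count of 7 lower genes, a count added after seeing the data, ranged from 5 to 8 (7 to 8 with an animal left out). Over the 4 comparisons recomputed per gene (all but 1 day against 2 hours), 526 values kept direction and call, 2 gained a call (GNLY and CST7, DESeq2) and 32 turned. The cause of these changes was not tested.

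Without the animal term, the replicate block, genes past 0.05 numbered 3 at 1 day against pre-treatment and 0 at 1 day against 2 hours, the added count of 5 genes higher at 2 hours than at 30 minutes was 2, and GZMA at 2 hours was -0.17 and CTSW at 2 hours against 30 minutes 0.0073. It changed no call of a single gene. DESeq2 called 2 of the 10 genes at 30 minutes and 4 at any time. Over all genes it called 11, 79 and 400 at 30 minutes, 2 hours and 1 day against pre-treatment, 3 at 2 hours against 30 minutes and 114 at 1 day against 2 hours. Raw library totals gave 2 genes at 2 hours and 46 at 1 day, and 3 of the added 5, and moved the median of all genes by -0.16, -0.26 and -0.21 at 30 minutes, 2 hours and 1 day. With no filter these were 7 and 70 genes. Without the 1 day library of LG04, 2 genes passed at 2 hours against pre-treatment and 6 at 1 day against 2 hours. Without the 4 shallowest libraries none passed at 1 day against either time. FPKM gave 6 and 2 genes (pseudocounts 0.1 and 1) at 1 day against 2 hours, and 3 of the added 5 with either. With an animal left out, genes past 0.05 at 1 day ranged from 1 to 67 against pre-treatment and from 0 to 2 against 2 hours, and the added 5 from 2 to 5.

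At 2 hours against pre-treatment, GZMA was -0.19 with raw totals and -0.23 and -0.22 with FPKM, and -0.22 to 0.37 with an animal left out. GZMB was 0.090 without the shallowest libraries and -0.23 to 0.073 with an animal left out, and NKG7 -0.61 to 0.037. GZMK was -0.014 with DESeq2, -0.0058 with its size factors, -0.32 with raw totals, -0.026 without filter, -0.025 without globin genes, -0.34 and -0.31 with FPKM, and -0.31 to 0.22 with an animal left out. At 1 day GZMK was 0.11 without that library of LG04 and 0.0024 without the shallowest, and GZMM was 0.25 and 0.019 with FPKM. With an animal left out, GZMK ranged from -0.12 to 0.16 at 1 day, GZMM from -0.91 to 0.65, PRF1 from -0.37 to 0.26 and NKG7 from -0.38 to 0.31. At 2 hours against 30 minutes GZMK was 0.0020 and GZMM 0.055 without the shallowest libraries, and with an animal left out GZMM ranged from -0.30 to 0.35 and CTSW from -0.11 to 0.13. Other settings were not run for single genes at 1 day against 2 hours, where no fold change is given. Depth limits GZMA and GZMM, whose lowest counts were 3 and 1.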
